A study of Homo sapiens with 16 samples.

Results

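The 10 genes described here code for the FASTK family of mitochondrial RNA-binding proteins and for 4 partners that stabilise or degrade mitochondrial mRNAs. They were taken by symbol from a table of 35106 gene rows, and each symbol was found once. The family has 6 members: FASTK, FASTKD1, FASTKD2, FASTKD3, TBRG4 (also called FASTKD4) and FASTKD5. LRPPRC and SLIRP form the complex that protects mitochondrial mRNAs, and PNPT1 and SUPV3L1 form the complex that degrades them. All 10 passed the filter on low counts in every comparison.

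RNA was sequenced from 2 human breast cancer lines. SKBR3 carries an amplified ERBB2 (HER2) gene, and MDA-MB-231 is triple-negative with mesenchymal traits. The groups were SKBR3 with MitoQ (3 libraries), SKBR3 control (3), MDA-MB-231 with MitoQ (5) and MDA-MB-231 control (5). MitoQ, a ubiquinone tied to a lipophilic cation that draws it into mitochondria, was given at 500 nM for 48 h. Cells were grown in a high-glucose medium with serum; SKBR3 was at passage 10 and MDA-MB-231 at passage 25, so passage differs together with the line and the 2 cannot be told apart. The labels do not say what the control cells received or whether replicates were separate cultures, so p-values measure the spread between these libraries only. In bulk RNA, fewer cells with an mRNA and less of it per cell cannot be told apart.

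Totals of estimated counts lay between 14723152 and 29294865 per library. The 7 marker genes of SKBR3 summed to 7857 to 9201 CPM (counts scaled to a common total) in SKBR3 libraries and to 258 to 339 CPM in MDA-MB-231 libraries. The 6 markers of MDA-MB-231 summed to 9.99 to 18.3 CPM in SKBR3 libraries and to 6520 to 7576 CPM in MDA-MB-231 libraries. On the first principal component within SKBR3, MitoQ libraries lay at 13.4 to 18.5, controls 1 and 2 at -21.0 and -20.5, and control 3 apart from both at -7.18. In MDA-MB-231, MitoQ 2 stood apart from its group: the chi-square of its counts per degree of freedom was 14.8 to 19.6 against the other MitoQ libraries, which gave 3.14 to 10.8 among themselves.

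Mitochondrial DNA is transcribed into long RNAs that are cut into single mRNAs, mostly at the tRNAs that lie between them, by mitochondrial RNase P and ELAC2. FASTKD5 is needed where no tRNA marks the cut. LRPPRC and SLIRP bind the released mRNAs, keep them stable and support their polyadenylation, while the SUPV3L1 helicase and the PNPT1 nuclease unwind and digest RNA. The other FASTK proteins each act on particular mitochondrial RNAs, and all of these factors are encoded in the nucleus and imported.

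In both lines the mRNAs of most of these factors were lower with MitoQ, and none was called higher. In SKBR3, 6 of 10 were called lower and 0 higher, beside 14.1% lower and 13.8% higher among all 15026 genes tested. In MDA-MB-231, 7 of 10 were called lower and 0 higher, beside 27.6% lower and 29.9% higher among all 15304 genes tested. The 6 genes FASTKD1, FASTKD3, FASTKD5, LRPPRC, SLIRP and PNPT1 were called in both lines, and TBRG4 in MDA-MB-231. A call is an adjusted p under 0.05 in edgeR's quasi-likelihood test. At an unadjusted p under 0.05 also 0 of the 10 were higher in either line, and DESeq2 called 0 higher; limma voom called 0 higher in SKBR3 and 1 in MDA-MB-231. The median log2 fold change over the 10 genes was -0.16 in SKBR3 and -0.23 in MDA-MB-231, beside -0.00064 and 0.012 over all genes tested. Together the 10 genes took 0.0986% to 0.0993% of all counts in SKBR3 MitoQ libraries and 0.105% to 0.108% in SKBR3 controls. They took 0.0713% to 0.0781% in MDA-MB-231 MitoQ libraries and 0.0820% to 0.0863% in MDA-MB-231 controls. The scaling factors of MDA-MB-231 moved with the treatment, at 1.01 to 1.05 with MitoQ and 0.965 to 0.985 in controls, and with plain library totals 7 of the 10 were called lower and 1 (FASTK) higher. Over all genes plain totals gave 5337 higher and 3484 lower calls in MDA-MB-231, against 4574 and 4231 with TMM scaling. Without MDA-MB-231 MitoQ 2, the library that stood apart, 8 of the 10 were called lower and 1 higher.

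**Figure D1:**
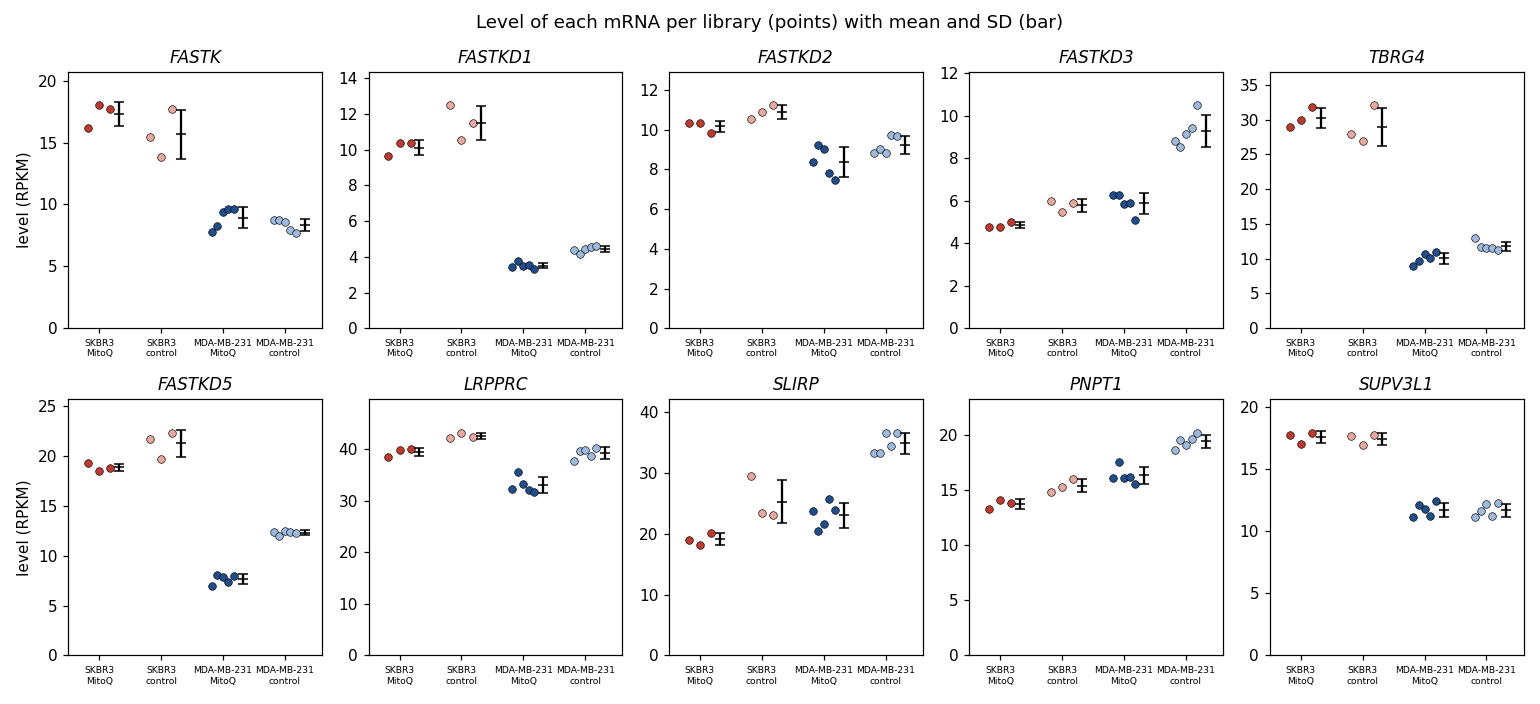
Level of each of the 10 mRNAs in RPKM (vertical axis, from 0) in the 16 libraries, with MitoQ left of control in each line; points are libraries and bars show mean and SD. FASTKD3 and FASTKD5 of MDA-MB-231 show separate clouds with and without MitoQ, while the SUPV3L1 points of each line overlap.

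The figure of levels per library and the values that follow use RPKM, scaled counts per kilobase of merged exons, wherever genes are set side by side. LRPPRC stood highest in all 4 groups, with 39.5 ± 0.808 RPKM in SKBR3 MitoQ, 42.6 ± 0.571 in SKBR3 control, 33.0 ± 1.51 in MDA-MB-231 MitoQ and 39.2 ± 1.07 in MDA-MB-231 control (SD). SLIRP came next in MDA-MB-231, with 23.1 ± 2.06 RPKM with MitoQ and 34.9 ± 1.69 in controls. In SKBR3 it came after TBRG4, which had 30.3 RPKM ± 1.42 with MitoQ and a range of 27.0 to 32.1 RPKM in controls. This order depends on the length used for SLIRP, whose merged exons hold 2631 bases and whose longest transcript holds 865. With the longest transcript of each gene SLIRP was at 106 RPKM and LRPPRC at 60.5 RPKM in MDA-MB-231 controls. The lowest gene was FASTKD3 in SKBR3 (4.85 ± 0.147 RPKM with MitoQ and 5.78 ± 0.292 in controls) and FASTKD1 in MDA-MB-231 (3.50 ± 0.158 and 4.42 ± 0.172).

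Neighbours in the order of levels often did not differ beyond their spread. The overlaps given here are for merged-exon lengths and depend on the length used. With the longest transcript of each gene, TBRG4 (19.2 to 22.1 RPKM) lay above FASTKD5 (11.9 to 12.5 RPKM) in MDA-MB-231 controls. In SKBR3 controls the ranges of TBRG4 and SLIRP, of SUPV3L1 and FASTK, of FASTK and PNPT1, and of FASTKD1 and FASTKD2 overlapped. In MDA-MB-231 controls those of FASTKD5 and TBRG4, of TBRG4 and SUPV3L1, and of FASTKD3 and FASTKD2 did. With MitoQ, the overlapping neighbours were SLIRP and FASTKD5, SUPV3L1 and FASTK, and FASTKD2 and FASTKD1 in SKBR3. In MDA-MB-231 with MitoQ they were TBRG4 and FASTK, FASTK and FASTKD2, and FASTKD2 and FASTKD5.

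LRPPRC (ENSG00000138095, GRCh38 chromosome 2, 43886508 to 43996005) binds mitochondrial mRNAs and is their main stabilising factor. In SKBR3 it had 378, 384 and 382 CPM with MitoQ and 414, 428 and 410 CPM in controls, with no overlap. Its log2 fold change was -0.13 ± 0.035 (SE; edgeR adjusted p = 0.0132). In MDA-MB-231 it had 320, 353, 327, 315 and 310 CPM with MitoQ and 365, 390, 389, 372 and 389 CPM in controls. Every MitoQ library lay below every control, and the log2 fold change was -0.23 ± 0.044 (edgeR adjusted p = 0.000209).

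SLIRP (ENSG00000119705, chromosome 14, 77708071 to 77761104), the small RNA-binding partner of LRPPRC, also fell in both lines. In SKBR3 it had 50.4, 47.4 and 51.8 CPM with MitoQ and 78.1, 62.6 and 60.2 CPM in controls, of which control 1 was high. Its log2 fold change was -0.42 ± 0.093 (edgeR adjusted p = 0.00919), and -0.30 without control 1. MDA-MB-231 had 63.3, 54.9, 57.5, 68.0 and 62.9 CPM with MitoQ and 86.9, 88.1, 96.3, 89.4 and 95.3 CPM in controls. The groups did not overlap, and the fall was 1.49-fold (log2 -0.57 ± 0.056, edgeR adjusted p = 6.13e-08). Of the 31-base stretches of SLIRP transcripts, 22.8% also occur in transcripts of other genes, most often C14orf178, which shares 275 exon bases with it. C14orf178 was at 0.815 CPM with MitoQ and 0.678 CPM in controls in SKBR3 and did not pass the filter in MDA-MB-231. On the opposite strand SNW1 shares 118 exon bases and had a log2 fold change of -0.13 ± 0.060 in SKBR3 (edgeR adjusted p = 0.117) and -0.16 ± 0.042 in MDA-MB-231 (edgeR adjusted p = 0.00333).

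The ratio of LRPPRC to SLIRP counts, which needs no scaling between libraries, was higher in every MitoQ library than in any control of the same line. In SKBR3 it was 7.50, 8.09 and 7.38 with MitoQ and 5.31, 6.84 and 6.80 in controls. The log2 ratio was higher with MitoQ by 0.29, and by 0.16 without SKBR3 control 1. In MDA-MB-231 the ratio was 5.05, 6.44, 5.69, 4.63 and 4.93 with MitoQ and 4.20, 4.42, 4.04, 4.16 and 4.08 in controls. Here the log2 ratio was higher by 0.35. A two-sided exact permutation test gave p = 0.10 in SKBR3 (n = 3 and 3) and p = 0.00794 in MDA-MB-231 (n = 5 and 5), each the smallest p its design allows. Adjusted over the 4 ratio tests run, these exact permutation values were 0.10 and 0.0159. Ratios of unrelated gene pairs were not formed, so whether such a separation is particular to partner genes was not tested.

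**Figure D2:**
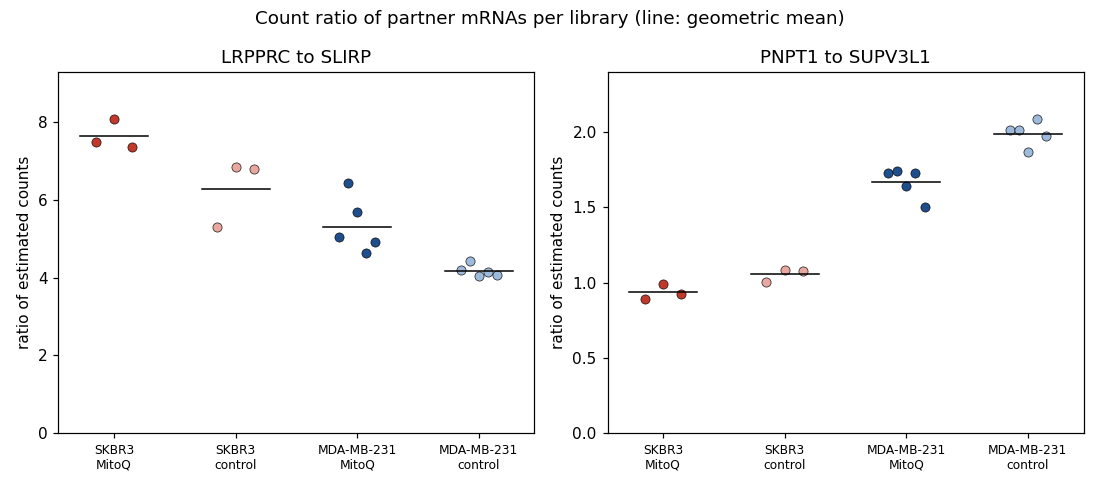
Ratio of estimated counts of LRPPRC to SLIRP (left) and of PNPT1 to SUPV3L1 (right) in each library (points), with the geometric mean of the group (line); both vertical axes start at 0. With MitoQ the first ratio lies above and the second below the controls in both lines, with no overlap.

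PNPT1 (ENSG00000138035, chromosome 2, 55634265 to 55693910) codes for the polynucleotide phosphorylase that digests RNA in mitochondria. In SKBR3 it had 68.4, 71.6 and 69.4 CPM with MitoQ and 76.6, 79.8 and 81.4 CPM in controls. Its log2 fold change there was -0.18 ± 0.044 (edgeR adjusted p = 0.00615). In MDA-MB-231 it had 84.1, 91.9, 83.4, 83.7 and 80.1 CPM with MitoQ and 95.2, 101, 97.7, 99.3 and 103 CPM in controls. The log2 fold change was -0.23 ± 0.045 (edgeR adjusted p = 0.000263), and in neither line did the groups overlap. Of its 31-base stretches 19.6% occur in transcripts of other genes.

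SUPV3L1 (ENSG00000156502, chromosome 10, 69180232 to 69209099) codes for the helicase of the same complex. It had 76.5, 72.1 and 75.2 CPM with MitoQ and 76.2, 73.7 and 75.5 CPM in controls in SKBR3. In MDA-MB-231 it had 48.5, 52.8, 50.8, 48.4 and 53.4 CPM with MitoQ and 47.3, 50.01, 52.2, 47.6 and 52.0 CPM in controls. The groups overlapped in both lines. The log2 fold change was -0.012 in SKBR3, with a 95% interval of -0.097 to 0.073, and 0.027 in MDA-MB-231, with an interval of -0.071 to 0.12. The sign of these small values changed under some settings. The ratio of PNPT1 to SUPV3L1 counts was 0.893, 0.992 and 0.923 with MitoQ and 1.01, 1.08 and 1.08 in controls in SKBR3. In MDA-MB-231 the ratio was 1.73, 1.74, 1.64, 1.73 and 1.50 with MitoQ and 2.01, 2.01, 1.87, 2.09 and 1.97 in controls. The log2 ratio was lower with MitoQ by 0.17 in SKBR3 (exact permutation p = 0.10, adjusted 0.10, n = 3 and 3). It was lower by 0.26 in MDA-MB-231 (exact permutation p = 0.00794, adjusted 0.0159, n = 5 and 5).

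Within the FASTK family FASTKD5 (ENSG00000215251, chromosome 20, 3146519 to 3159897) fell most in MDA-MB-231. In SKBR3 it had 55.6, 52.5 and 52.9 CPM with MitoQ and 62.8, 57.5 and 63.7 CPM in controls. The log2 fold change was -0.20 ± 0.052 (edgeR adjusted p = 0.0105). The values in MDA-MB-231 were 20.3, 23.6, 22.9, 21.2 and 23.0 CPM with MitoQ and 35.4, 34.5, 35.9, 35.1 and 34.9 CPM in controls. The highest MitoQ library stood far below the lowest control, a fall of 1.59-fold (log2 -0.67 ± 0.055, edgeR adjusted p = 5.06e-09). UBOX5, which lies on the same strand and shares 132 exon bases with FASTKD5, had values of 0.077 ± 0.055 in SKBR3 (edgeR adjusted p = 0.334) and 0.12 ± 0.076 in MDA-MB-231 (edgeR adjusted p = 0.178).

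FASTKD3 (ENSG00000124279, chromosome 5, 7859159 to 7869037), which affects the levels of several mitochondrial mRNAs, also fell in both lines. In SKBR3 it had 13.6, 13.5 and 14.01 CPM with MitoQ and 17.3, 15.8 and 16.7 CPM in controls. The log2 fold change was -0.28 ± 0.077 (edgeR adjusted p = 0.0138). MDA-MB-231 libraries had 18.2, 18.3, 16.9, 16.9 and 14.6 CPM with MitoQ and 25.0, 24.5, 26.1, 26.5 and 29.7 CPM in controls. The groups did not overlap in either line, and the MDA-MB-231 fall was 1.55-fold (log2 -0.63 ± 0.071, edgeR adjusted p = 3.94e-07). MTRR overlaps FASTKD3 by 100 exon bases on the opposite strand, and the labels do not say whether the libraries kept strand. Its log2 fold change was -0.11 ± 0.047 in SKBR3 (edgeR adjusted p = 0.0938) and -0.033 ± 0.052 in MDA-MB-231 (edgeR adjusted p = 0.615).

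FASTKD1 (ENSG00000138399, chromosome 2, 169529749 to 169573875), a negative regulator of a single complex I mRNA, was lower in both lines. It ranged from 43.1 to 45.6 CPM with MitoQ and from 47.7 to 56.0 CPM in controls in SKBR3 (log2 -0.21 ± 0.060, edgeR adjusted p = 0.0175). In MDA-MB-231 it ranged from 14.7 to 16.99 CPM with MitoQ and from 18.7 to 20.3 CPM in controls (log2 -0.31 ± 0.059, edgeR adjusted p = 0.000165).

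TBRG4 (ENSG00000136270, chromosome 7, 45100100 to 45112047), which stabilises a subset of mitochondrial mRNAs, fell in MDA-MB-231. It had 52.5, 57.3, 62.6, 58.8 and 63.6 CPM with MitoQ and 74.8, 67.8, 67.2, 65.7 and 64.8 CPM in controls. The groups came close but did not overlap (log2 -0.21 ± 0.056, edgeR adjusted p = 0.00370). In SKBR3 it had 169, 172 and 180 CPM with MitoQ and 163, 159 and 185 CPM in controls, and control 3 was the highest of all 6. The log2 fold change was 0.036 with a 95% interval of -0.067 to 0.14.

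FASTK (ENSG00000164896, chromosome 7, 151076593 to 151080866), the founding member, has a mitochondrial form that preserves the ND6 mRNA. It had 61.8, 67.8 and 65.7 CPM with MitoQ and 59.2, 53.4 and 66.9 CPM in controls in SKBR3. In MDA-MB-231 it had 30.1, 31.99, 36.0, 36.7 and 36.6 CPM with MitoQ and 33.0, 33.5, 32.5, 29.6 and 28.9 CPM in controls. The groups overlapped in both lines. The log2 fold change was 0.11 (95% interval -0.026 to 0.25) in SKBR3 and 0.12 (-0.0089 to 0.25) in MDA-MB-231. FASTK was called higher in MDA-MB-231 with plain library totals (0.18, edgeR adjusted p = 0.0191), in limma's weighted voom fit (0.14, adjusted p = 0.0467), without MitoQ 1 (0.17, edgeR adjusted p = 0.0359) and without MitoQ 2 (0.15, edgeR adjusted p = 0.0446).

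FASTKD2 (ENSG00000118246, chromosome 2, 206765357 to 206792509), which binds the large ribosomal RNA and is needed for the mitochondrial ribosome, did not pass the test. In SKBR3 it ranged from 58.5 to 63.0 CPM with MitoQ and from 64.5 to 67.7 CPM in controls (log2 -0.12 ± 0.047, edgeR adjusted p = 0.0793). In MDA-MB-231 it ranged from 45.3 to 57.1 CPM with MitoQ and from 53.3 to 58.3 CPM in controls (log2 -0.11 ± 0.061, edgeR adjusted p = 0.116). In MDA-MB-231 it was called lower in limma voom (-0.15, adjusted p = 0.0194), in a single fit over all 16 libraries (-0.14, edgeR adjusted p = 0.0341) and without MitoQ 2 (-0.14, edgeR adjusted p = 0.0340).

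Groups did not overlap, with MitoQ lower, for 7 of 10 genes in SKBR3 and for 7 of 10 in MDA-MB-231. Among all genes tested this held for 21.9% and 21.1%. None of the 10 had MitoQ libraries all above the controls, against 20.1% and 22.6%. In SKBR3 several calls rested on single libraries, and 2 to 6 genes were called lower when each library was left out in turn. FASTKD1 lost its call without control 1 (edgeR adjusted p = 0.0862), MitoQ 1 (0.0978) or MitoQ 2 (0.0682), and FASTKD3 without the same libraries (0.0543, 0.0556 and 0.0854). LRPPRC lost it without control 2 (0.116), MitoQ 1 (0.0826) or MitoQ 2 (0.0979), and FASTKD5 without MitoQ 2 (0.0952). Without SKBR3 control 3, the library that lay apart, the same 6 genes were called lower, and FASTK (0.23, edgeR adjusted p = 0.00597) and TBRG4 (0.13, edgeR adjusted p = 0.0315) were called higher. Tested against a minimum change of 1.2-fold, no gene of the 10 was called in SKBR3, and 3 were called lower in MDA-MB-231. Among all 15026 genes tested in SKBR3, that test called 376 higher and 96 lower. Among all 15304 genes tested in MDA-MB-231, it called 2491 higher and 1909 lower.

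**Figure D3:**
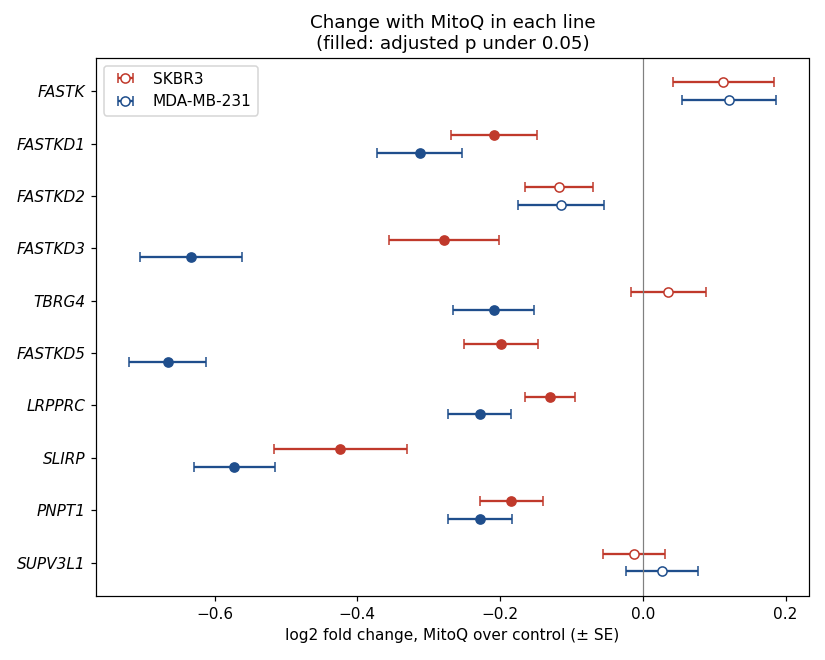
Log2 fold change of MitoQ over control (horizontal axis) with its SE for each gene, SKBR3 above MDA-MB-231; filled points passed an adjusted p of 0.05. FASTKD5, FASTKD3 and SLIRP of MDA-MB-231 lie farthest to the left, at -0.67, -0.63 and -0.57, and no filled point lies to the right of 0.

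The change with MitoQ differed between the lines for 3 of the 10 genes, each with a smaller fall or none in SKBR3. By edgeR, DESeq2 or limma voom 0 of the 10 were called the other way, and 0 had such a difference at an unadjusted edgeR p under 0.05. In the interaction test 19.1% of all 17094 genes were called higher in SKBR3 and 14.9% lower. Taken over both directions, calls were about as common among all genes as among the 10. FASTKD5 differed most: its log2 fold change was -0.20 in SKBR3 and -0.67 in MDA-MB-231, a difference of 0.51 ± 0.080 (edgeR adjusted p = 2.05e-05). For FASTKD3 the values were -0.28 in SKBR3 and -0.63 in MDA-MB-231, a difference of 0.40 ± 0.11 (edgeR adjusted p = 0.00835). For TBRG4 they were 0.036 and -0.21, a difference of 0.29 ± 0.092 (edgeR adjusted p = 0.0169). The TBRG4 call was lost with plain library totals (0.20, edgeR adjusted p = 0.0760) and without SKBR3 control 1 (0.0524), control 2 (0.0529) or MitoQ 3 (0.0605).

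For the other 7 genes a difference between the lines was not called. The 95% interval of the difference was -0.021 to 0.40 for SLIRP, 0.024 to 0.26 for LRPPRC (edgeR adjusted p = 0.0736), -0.046 to 0.22 for PNPT1 and -0.14 to 0.15 for SUPV3L1. It was -0.025 to 0.32 for FASTKD1, -0.13 to 0.21 for FASTKD2 and -0.18 to 0.25 for FASTK. LRPPRC was called without MDA-MB-231 MitoQ 2 (edgeR adjusted p = 0.00844) and in limma voom (adjusted p = 0.00422), and SLIRP without SKBR3 control 1 (0.31, edgeR adjusted p = 0.0177). Of the interaction calls over all genes 56.1% were in the direction higher in SKBR3, and 41.6% with plain library totals.

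The control lines differed in all 10 genes, with SKBR3 higher in 7 and lower in 3. Among all 16398 genes tested SKBR3 was called higher in 42% and lower in 44.4%, so most genes differed between the control lines. FASTKD1 had 50.8 ± 4.21 CPM in SKBR3 controls and 19.3 ± 0.757 CPM in MDA-MB-231 controls, a log2 difference of 1.40 ± 0.060 (edgeR adjusted p = 2.50e-15). TBRG4 had 167 ± 15.3 CPM in SKBR3 and 67.1 ± 3.84 CPM in MDA-MB-231 (log2 1.32 ± 0.055), FASTK differed by 0.94 ± 0.068 and FASTKD5 by 0.81 ± 0.050. SUPV3L1 differed by 0.60 ± 0.047 and FASTKD2 by 0.26 ± 0.049. SKBR3 was lower in FASTKD3 (-0.66 ± 0.074), SLIRP (-0.45 ± 0.071) and PNPT1 (-0.32 ± 0.043). LRPPRC differed least (0.13 ± 0.037, edgeR adjusted p = 0.00228), and this call was lost with no filter on low counts (0.074, edgeR adjusted p = 0.127).

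The make-up of the family, as shares of its summed RPKM, is given as a description without a test. FASTKD5 held 20.6% ± 0.856 with MitoQ and 22.6% ± 0.440 in controls in SKBR3, and 17.2% ± 0.641 with MitoQ and 22.2% ± 0.307 in controls in MDA-MB-231 (SD). FASTK held 18.9% ± 0.721 with MitoQ and 16.6% ± 0.898 in controls in SKBR3, and 20.1% ± 1.62 with MitoQ and 15.1% ± 1.03 in controls in MDA-MB-231. In these shares the MitoQ and control libraries of a line did not overlap. The same held for FASTKD1, FASTKD3 and TBRG4 in SKBR3 and for FASTKD3 in MDA-MB-231. Shares are tied to each other, so that of FASTK can rise as others fall, and FASTK itself was not called in either line. TBRG4 held the largest share in SKBR3, at 33.0% ± 0.831 with MitoQ and 30.8% ± 1.07 in controls. The largest shares in MDA-MB-231 were those of TBRG4 (22.6%) and FASTK (20.1%) with MitoQ, and those of FASTKD5 (22.2%) and TBRG4 (21.3%) in controls. These shares rest on merged-exon lengths. With the longest transcript of each gene the order in MDA-MB-231 controls reversed, with TBRG4 at 20.1 RPKM and FASTKD5 at 12.3 RPKM.

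Promoter windows were read from RefSeq (GRCh38.p14) for 9 of the 10 genes; FASTKD5 had no entry. Each window runs from 250 bases before the start to 30 after it and was searched on both strands for 6 motifs. These were CCGGAAG, the core that ETS factors bind, then AAGATGG, the core of the YY1 motif, and the CCAAT box. The search also took TGCGCA, the core of the NRF1 motif, and the ATF4 element TGATGNAAN. The last was the CREB site TGACGT. SLIRP and FASTK are shown because both hold the YY1 core just after the start, although SLIRP was called lower and FASTK was not called. FASTKD3 is shown as the steepest faller in MDA-MB-231 with an entry. Capitals mark the ETS core, the YY1 core and the CCAAT box, on either strand.
SLIRP, chr14:77707853-77708132, plus strand: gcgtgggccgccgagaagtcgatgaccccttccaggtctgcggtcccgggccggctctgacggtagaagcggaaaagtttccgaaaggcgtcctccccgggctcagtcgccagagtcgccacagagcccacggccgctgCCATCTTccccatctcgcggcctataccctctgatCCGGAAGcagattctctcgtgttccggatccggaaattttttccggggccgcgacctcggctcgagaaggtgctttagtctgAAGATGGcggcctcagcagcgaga
FASTK, chr7:151080780-151081059, minus strand: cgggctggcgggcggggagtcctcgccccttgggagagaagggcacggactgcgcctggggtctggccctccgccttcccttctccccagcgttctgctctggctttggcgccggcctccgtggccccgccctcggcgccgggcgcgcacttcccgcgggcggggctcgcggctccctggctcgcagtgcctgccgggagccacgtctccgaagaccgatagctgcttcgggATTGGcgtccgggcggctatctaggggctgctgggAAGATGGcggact
FASTKD3, chr5:7869002-7869281, minus strand: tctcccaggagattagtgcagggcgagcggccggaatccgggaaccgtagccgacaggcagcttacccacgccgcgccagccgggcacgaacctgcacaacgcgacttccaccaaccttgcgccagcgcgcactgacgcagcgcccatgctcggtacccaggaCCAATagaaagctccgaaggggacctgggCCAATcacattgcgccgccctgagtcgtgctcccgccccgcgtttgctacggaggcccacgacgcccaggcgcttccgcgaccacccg
The YY1 core was found in 5.19% of all 35116 windows of this length, CCGGAAG in 9.94% and CCAAT in 33.6%. AAGATGG lay after the start in SLIRP (at 7) and FASTK (at 18), and before it on the opposite strand in SLIRP (at -111) and LRPPRC (at -105). CCGGAAG lay in the windows of SLIRP and TBRG4. CCAAT lay in those of FASTK, FASTKD3 (at -87 and -58), LRPPRC, PNPT1 and SUPV3L1. TGACGT, found in 7.77% of all windows, lay in that of TBRG4. TGCGCA (7.93% of all windows) and TGATGNAAN (3.43%) were found in no window of the 9 genes. A second SLIRP window, of a start farther upstream, held CCGGAAG at -44 and AAGATGG on the opposite strand at -79. No motif of the search overlapped another in these windows.

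Other genes of mitochondrial RNA processing, modification and decay are given for comparison. Of 37 such genes, 12 were called lower and 1 higher in SKBR3, with a median log2 fold change of -0.088. Among all genes tested 14.1% were called lower and 13.8% higher. The count of 12 was 4 to 8 when any single SKBR3 library was left out, 7 with DESeq2 and 5 in the single fit over all 16 libraries. In MDA-MB-231, 14 were called lower and 5 higher, with a median of -0.093, beside 27.6% lower and 29.9% higher among all genes. All 4 genes of 5' and 3' end processing, TRMT10C, HSD17B10 and KIAA0391 (the RNase P subunits) and ELAC2 (the 3' nuclease), were called lower in both lines. Their values ran from -0.28 to -0.14 in SKBR3 and from -0.56 to -0.31 in MDA-MB-231. In SKBR3 the calls of ELAC2 (edgeR adjusted p = 0.0335) and KIAA0391 (0.0226) did not pass 0.01. The interaction test called 3 of the 4 (ELAC2, TRMT10C and KIAA0391), each with a smaller fall in SKBR3. Of the 8 genes of tails and decay, 4 were called lower and 1 higher in SKBR3, and 3 lower and 1 higher in MDA-MB-231. Of the 10 genes of tRNA modification, 0 were called in SKBR3 and 3 were called lower in MDA-MB-231. Of the 15 genes of the ribosomal RNA module, 4 were called lower in SKBR3, and 4 lower and 4 higher in MDA-MB-231.

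Among the called genes, the largest falls in SKBR3 were those of PDE12 (-0.30 ± 0.046), which removes poly(A) tails, HSD17B10 (-0.28 ± 0.056) and TFB1M (-0.27 ± 0.084), an rRNA methyltransferase. The only called rise there was that of LACTB2 (0.37 ± 0.045), a mitochondrial endoribonuclease. In MDA-MB-231 the largest called falls were those of TRMU (-0.84 ± 0.054), which thiolates tRNAs, PDE12 (-0.59 ± 0.050) and TRMT10C (-0.56 ± 0.071). The largest called rises were those of ANGEL2 (0.26 ± 0.050), NSUN4 (0.22 ± 0.048), an rRNA methyltransferase, and MRM2 (0.18 ± 0.058), an rRNA methyltransferase. MRM2 was called lower in SKBR3 (-0.20 ± 0.046), and its difference between the lines of -0.34 passed the interaction test (edgeR adjusted p = 0.00205). Of the 37 genes, that test called 9 higher in SKBR3 and 5 lower, beside 19.1% and 14.9% of all 17094 genes tested. PDE12, TRMT10C, LACTB2, ANGEL2 and NSUN4 were among them. So was TRMU (0.79, edgeR adjusted p = 7.73e-08), which was not called in SKBR3 (-0.086 ± 0.058, edgeR adjusted p = 0.305). GRSF1, an RNA-binding protein that works with the degrading complex, was lower in SKBR3 (-0.15 ± 0.034, edgeR adjusted p = 0.00396) and MDA-MB-231 (-0.25 ± 0.049, edgeR adjusted p = 0.000287).

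**Figure D4:**
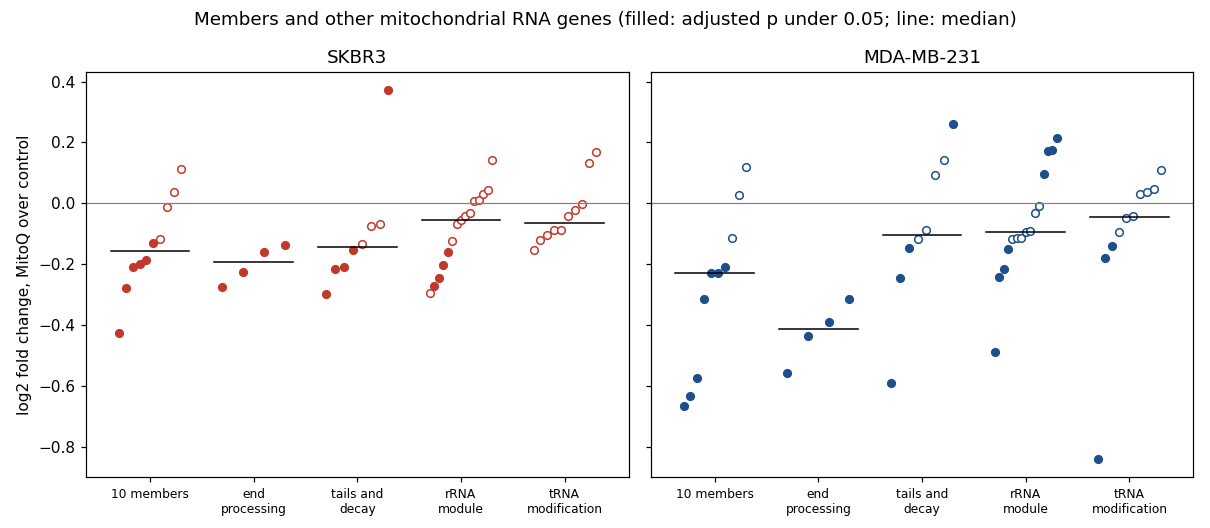
Log2 fold change of MitoQ over control (vertical axis) for the 10 genes and for 37 other mitochondrial RNA genes by role, in SKBR3 (left) and MDA-MB-231 (right); filled points passed an adjusted p of 0.05 and lines are medians. The 4 end-processing genes are filled and below 0 in both lines.

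The mRNAs encoded in mitochondrial DNA, on which these factors act, took 5.15% to 5.26% of counts in SKBR3 MitoQ libraries. In SKBR3 controls they took 5.67% to 7.08%. Of these 13 mRNAs 4 were called lower in SKBR3, beside 14.1% of all genes tested. Their log2 fold changes there ran from -0.75 to -0.053. For 9 of 13 the groups did not overlap, with MitoQ lower, beside 21.9% of all genes tested. In MDA-MB-231 they took 0.891% to 1.24% with MitoQ and 3.10% to 3.68% in controls. Here 12 of 13 were called lower, beside 27.6% of all genes tested, with log2 fold changes from -2.96 to -0.19. The MDA-MB-231 groups did not overlap, with MitoQ lower, for 12 of 13, beside 21.1% of all genes tested. When mitochondrially encoded genes were left out of the fits, every FASTK family and partner gene kept its MitoQ result in both lines. FASTKD5 then had a log2 fold change of -0.20 in SKBR3 and -0.67 in MDA-MB-231, and SLIRP had -0.43 and -0.58. FASTK, again not called, had 0.11 in each line. These refits show only that the calls did not depend on having those rows in the fit. A link of these shares to the values above was not tested.

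Likeness to other genes was measured as Pearson's r of log2 CPM over the 16 libraries after the mean of each line was subtracted, among the 11551 genes that averaged 5 CPM or more. These values are descriptions without a test, since the contrast of MitoQ with control and the scaling are common to all genes. The 2 genes most like LRPPRC were NDC1 (r = 0.984) and NOL11 (r = 0.978), and those most like SLIRP were MRPL36 (r = 0.980) and SNRPF (r = 0.978). PNPT1 was closest to MFN1 (r = 0.974) and DHX29 (r = 0.969), FASTKD1 to EXOSC9 (r = 0.959) and MFN1 (r = 0.957), and FASTKD2 to SLC36A4 (r = 0.977) and TMED7 (r = 0.943). FASTKD3 was closest to NPR3 (r = 0.990) and CBX3 (r = 0.989), FASTKD5 to DHX15 and AC027237.1 (both r = 0.984), TBRG4 to BAD (r = 0.954) and COMTD1 (r = 0.951), and FASTK to HGS (r = 0.942) and P4HB (r = 0.937). SUPV3L1 had no gene as close, with POTEH (r = 0.713) and MAGEA3 (r = 0.705) first. Among the 10 genes the highest value was that of LRPPRC and PNPT1 (r = 0.959), and LRPPRC and SLIRP had r = 0.811. FASTK was negative with 7 of the other 9, down to r = -0.54 with FASTKD2.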

How the data were processed

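RNA was sequenced from 16 libraries of 2 cell lines. The authors deposited estimated counts per gene as whole numbers; Salmon, edgeR and GRCh38 are named per the submitters' processing notes. Their versions, the annotation and the rounding are not given in the sources used here. Positions and lengths come from GENCODE 29 on GRCh38.

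Low genes were removed (filterByExpr), libraries scaled by TMM, and the quasi-likelihood test of edgeR 4.0.16 (R 4.3.3, robust, two-sided) applied to all genes left, adjusted by Benjamini-Hochberg; the threshold was 0.05. Each SE was derived from the fold change and its F statistic, and 95% intervals are normal ones from it. CPM is scaled within each comparison and RPKM over all 16 libraries. A count of 0 allows 3 counts, 0.102 to 0.204 CPM per library, which covers counting error only. Alternatives were other size factors, filters and thresholds, DESeq2 1.42.0, limma 3.58.1 voom, a replicate block and each library left out. The fits were tested on simulated data. Named genes are the 10, the 3 largest called rises and falls of the other list in each line, and the 2 genes most like each; overlapping genes, GRSF1, ELAC2, KIAA0391 and promoter motifs were chosen after values were seen. The members and lists were chosen with earlier results of these data known.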

Additional observations from a re-analysis of the deposited data

Results flagged for a closer look

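In the test of the difference of the MitoQ effect between the lines, 3 of the 10 genes were called, all higher in SKBR3. Among all 17094 genes tested 19.1% were called higher and 14.9% lower, so over both directions calls were about as common as among the 10. The effect in SKBR3 minus that in MDA-MB-231 was 0.51 on the log2 scale for FASTKD5, 0.40 for FASTKD3 and 0.29 for TBRG4. The TBRG4 call was lost with plain library totals (edgeR adjusted p = 0.0760) and without SKBR3 control 1 (0.0524), control 2 (0.0529) or MitoQ 3 (0.0605). By Dixon's gap test, with a critical value of 0.71 for 5 samples, no library was an outlier for any of the 10 genes in MDA-MB-231. The 20 sets tested were each 1 gene in 1 MDA-MB-231 group, and groups of 3 were not tested. That test takes 1 gene at a time, and over all genes MDA-MB-231 MitoQ 2 stood apart from its group.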

How the results depend on the processing

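For the treatment effect on the 10 genes, 208 of 220 alternative values in MDA-MB-231 and 151 of 180 in SKBR3 kept their direction and their side of the threshold, as did 187 of 190 for the control lines and 240 of 270 for the difference between lines. Replicate numbers did not pair the samples (same-numbered libraries had correlations of -0.213 to 0.097 in MDA-MB-231 and -0.039 to 0.145 in SKBR3). The replicate block gave 0 genes of the 10 higher and 7 lower in MDA-MB-231, and 0 and 6 in SKBR3; the log2 ratios under the block were 0.35 for LRPPRC to SLIRP and -0.26 for PNPT1 to SUPV3L1 in MDA-MB-231, each with an exact sign-flip p of 0.0625, the smallest that 5 pairs allow.

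In MDA-MB-231, 1 gene of the 10 was called higher with plain library totals and 1 with voom, where SUPV3L1 had -0.0076. At a threshold of 0.01, 2 of the other mitochondrial RNA genes were called higher in MDA-MB-231. At that threshold in SKBR3, 1236 genes in all were higher and 1200 lower, with 2 of the 10 and 6 of the others lower, and 3 of the others were lower in the difference between lines. Tested against 1.2-fold, 2491 genes were higher and 1909 lower in MDA-MB-231, with 3 of the 10 lower and 0 of the others higher and 6 lower. In SKBR3 that test called 376 higher and 96 lower, with 0 of the 10 and 0 of the others. For the difference between lines it called 1621 higher and 1256 lower, with 1 of the 10 and 1 of the others higher and 0 lower. Other mitochondrial RNA genes in SKBR3 gave 7 lower calls with DESeq2 and 2 higher with no filter. A single fit over all libraries gave 1069 lower in SKBR3, with 2 of the 10 and 5 of the others lower, and SUPV3L1 at 0.0099. The single fit also changed the filter, the scaling and the estimate of spread, and the causes of these shifts were not tested.

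In the difference between lines, signs turned for values near 0. SUPV3L1 gave -0.019 with RLE factors, -0.041 with upper-quartile factors, -0.086 with plain totals, -0.019 with DESeq2, -0.024 with a filter at 1 CPM and -0.026 without mitochondrially encoded genes. FASTK gave -0.0079 with upper-quartile factors and -0.053 with plain totals, FASTKD2 -0.0053 and -0.052, and PNPT1 -0.0060 with plain totals. With each library left out, MDA-MB-231 gave 0 to 1 of the 10 and 3 to 6 of the other genes higher. SKBR3 gave 1107 to 1971 lower in all, 0 to 2 of the 10 higher and 2 to 6 lower, and 1 to 3 of the others higher and 4 to 8 lower. SUPV3L1 in SKBR3 ran from -0.018 to 0.030, and in the difference between lines SUPV3L1 ran from -0.013 to 0.037 and FASTK from -0.032 to 0.15, with 2 to 4 of the 10 and 6 to 11 of the others higher and 3 to 5 lower.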
